A study of Homo sapiens with 18 samples.

Results

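Of the 2462 small RNA features measured in this series, 7 small nucleolar RNAs (snoRNAs) are described here: U72, ACA62, ACA28, U19, ACA37, U73a and U94. They were selected on their measured values in vesicles, as the snoRNAs with the deepest loss from vesicles of autophagy-gene knockout cells, so the vesicle values below are a description and carry no test. Their levels in the cells are not part of that selection rule and were tested. Earlier results of these data were known when the members were chosen. The 18 libraries come from HEK293T, a human embryonic kidney cell line, and from the extracellular vesicles (EVs) that its cultures released. They form 6 groups of 3 libraries: vesicles of ATG7-/- cells (clone F2), of ATG12-/- cells (clone D9) and of wild type cells, and the ATG7-/-, ATG12-/- and wild type cells themselves. All cultures, the wild type ones included, were kept without serum for 24 h, after growth in medium with fetal bovine serum. Each knockout is a single clone, so the knockout and the clone cannot be told apart. The labels call the 3 libraries of a group biological replicates.

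SnoRNAs are short noncoding RNAs that sit in ribonucleoprotein particles, mostly in the nucleolus, and guide chemical modification of other RNAs by base pairing. Box H/ACA snoRNAs guide the conversion of uridine to pseudouridine, and box C/D snoRNAs guide methylation of the ribose. Most human snoRNAs are cut out of introns of a host gene, often one that serves protein synthesis. ATG7 is the activating enzyme, and ATG12 one of the small conjugated proteins, of the conjugation pathway by which LC3 proteins become anchored in membranes. The series asks how that conjugation machinery bears on what cells load into vesicles.

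U72, ACA62, ACA28, U19 and ACA37 are box H/ACA RNAs, and U73a and U94 are box C/D RNAs. The RNAs ACA28, U19, ACA37 and U73a are ribosomal RNA guides, and ACA62 is a relative of the ribosomal RNA guide ACA50. U94 differs in its target and guides methylation of U6, a small nuclear RNA of the spliceosome. In the GENCODE release used, on the GRCh38 build, U72 (SNORA72) lies in an intron of RPL30, a ribosomal protein gene. ACA28 (SNORA28) lies in an intron of EIF5, a translation initiation factor gene. U73a (SNORD73A) lies in an intron of RPS3A, a ribosomal protein gene, in 10 of the 11 transcripts that span it. U94 (SNORD94) lies in an intron of PTCD3, a mitochondrial ribosome gene. U19 (SNORA74A) lies on chromosome 5, 139278781 to 139278978, plus strand, in introns of MATR3 and of the noncoding host gene SNHG4. ACA37 (SNORA37) lies on chromosome 18, 54222284 to 54222412, minus strand, in an intron of MBD2. ACA62 (SNORA50C) lies in the exon of the 1 annotated transcript of SNHG25 that spans it, a noncoding host gene. No exact stretch of 50 bases of any of the 7 was found in an annotated transcript of a gene that lies elsewhere. Introns and unannotated sequence were not searched.

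The sequences below show how unlike the members are in length and base composition, and are copied from the GENCODE transcripts of the GRCh38 build. Capitals mark the letters ANANNA (the H box) and ACA near the end in H/ACA RNAs, and TGATGA (the C box) and CTGA (the D box) in C/D RNAs. U73b, the other snoRNA of RPS3A, is shown because its values differed from those of U73a.
ACA62, chr17:64146339-64146471, plus strand: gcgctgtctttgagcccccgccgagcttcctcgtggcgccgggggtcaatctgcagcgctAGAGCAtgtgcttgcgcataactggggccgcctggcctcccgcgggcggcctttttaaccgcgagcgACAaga
ACA28, chr14:103337849-103337974, plus strand: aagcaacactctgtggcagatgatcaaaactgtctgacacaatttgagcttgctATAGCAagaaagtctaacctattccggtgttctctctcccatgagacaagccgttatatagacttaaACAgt
U94, chr2:86135870-86136006, plus strand: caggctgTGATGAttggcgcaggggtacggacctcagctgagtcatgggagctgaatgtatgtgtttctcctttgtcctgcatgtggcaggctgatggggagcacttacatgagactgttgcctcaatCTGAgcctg
U73a, chr4:151103827-151103891, plus strand: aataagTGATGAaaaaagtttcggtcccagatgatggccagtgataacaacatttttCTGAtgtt
U73b, chr4:151102057-151102128, plus strand: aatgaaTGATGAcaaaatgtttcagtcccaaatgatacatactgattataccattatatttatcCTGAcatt

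The 7 differed in length and base composition. U19 is 198 nt long and ACA28 126 nt, beside a median of 134 nt (121 to 701) over the 100 other H/ACA snoRNAs with a sequence. U94 is 137 nt and U73a 65 nt, beside a median of 82 nt (64 to 237) over 239 other C/D snoRNAs. ACA62 is 66.9% G and C, where the other H/ACA snoRNAs range over 32.5% to 72.4% with a median of 49.6%. ACA was searched in the last 7 bases and ANANNA in the central part of the RNA, on the RNA strand alone. These windows were widened after the members' sequences had been seen. ACA was found in 91.4% and ANANNA in 98.1% of the H/ACA snoRNAs with a sequence. U72 had no ACA in its last 7 annotated bases. Among 241 C/D snoRNAs, TGATGA stood in the first 15 bases of 68.5% and CTGA in the last 15 bases of 95.4%.

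Levels are given as normalised reads, which are whole reads over the size factor of their library. Vesicle libraries held 1881080 to 3382605 reads assigned to features and cell libraries 1188388 to 1804089. 1 read is worth 1.17 to 1.89 normalised reads in a vesicle library and 0.477 to 0.824 in a cell library. Replicates of a group correlated with an r of 0.981 to 0.994 across features. The table holds no messenger RNA, so neither the knockouts nor the cell line could be checked against their own genes. MicroRNAs known from blood and serum were listed as markers of RNA carried over from serum, and 6 of 7 were in the table. Summed, they reached 181 to 263 normalised reads in ATG7-/- vesicles, 245 to 330 in ATG12-/- vesicles and 90.5 to 133 in wild type vesicles. In cells the sums were 4.91 to 11.4 in ATG7-/-, 1.91 to 2.10 in ATG12-/- and 1.27 to 5.94 in wild type, with 3 of the 6 at 0 in each cell group. Their part in the vesicle values below was not tested.

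The 5 H/ACA snoRNAs held a small part of their wild type level in vesicles of both knockouts. U72, annotated on chromosome 8, 98042086 to 98042217, minus strand, had 65.9, 94.6 and 53.0 normalised reads in ATG7-/- vesicles, 150.3, 145.9 and 135.8 in ATG12-/- vesicles, and 1847, 1641 and 2028 in wild type vesicles. The 3 groups stand apart, with the ATG7-/- libraries lowest. On the scale of log2 (normalised reads + 1) U72 differed from wild type vesicles by -4.71 (SE 0.19) in ATG7-/- and by -3.66 (SE 0.19) in ATG12-/- vesicles. What was left was 3.87% of the wild type mean in ATG7-/- vesicles and 7.83% in ATG12-/- vesicles. In these bulk libraries fewer vesicles that carry an RNA and less of it per vesicle cannot be told apart.

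ACA62, with the most normalised reads per length of the 7 in wild type vesicles, had 75.2, 95.8 and 69.0 normalised reads in ATG7-/- vesicles. It had 198.5, 193.6 and 224 in ATG12-/- vesicles and 2340.3, 1538 and 1949 in wild type vesicles. Its log2 change was -4.58 (SE 0.18) in ATG7-/- and -3.22 (SE 0.18) in ATG12-/- vesicles. What was left was 4.12% of the wild type mean in ATG7-/- and 10.6% in ATG12-/- vesicles. ACA28, an 18S ribosomal RNA guide, had 25.1, 29.2 and 18.6 normalised reads in ATG7-/- vesicles and 38.6, 35.8 and 35.8 in ATG12-/- vesicles. In wild type vesicles ACA28 had 441, 618 and 679.9. Its change of -3.92 (SE 0.21) in ATG12-/- vesicles was the lowest of the 7 there, and in ATG7-/- vesicles it was -4.52 (SE 0.21). For ACA28 4.19% of the wild type mean was left in ATG7-/- and 6.34% in ATG12-/- vesicles.

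U19, a 28S ribosomal RNA guide, kept the largest part of its wild type level in ATG12-/- vesicles among the 7, ahead of U73a. It had 67.3, 77.1 and 57.0 normalised reads in ATG7-/- vesicles, 165.4, 175.0 and 156.5 in ATG12-/- vesicles, and 1074, 671 and 820 in wild type vesicles. The log2 change was -3.63 (SE 0.18) in ATG7-/- and -2.33 (SE 0.18) in ATG12-/- vesicles. That left 7.85% of the wild type mean in ATG7-/- and 19.4% in ATG12-/- vesicles, where U73a was at 18.1%. ACA37 was the scarcest of the 5, with 10.5, 9.34 and 6.63 normalised reads in ATG7-/- vesicles, 16.5, 11.9 and 16.97 in ATG12-/- vesicles, and 106, 121.7 and 101 in wild type vesicles. In ATG7-/- vesicles ACA37 rests on 5 to 8 reads per library. Its log2 change was -3.50 (SE 0.26) in ATG7-/- and -2.78 (SE 0.26) in ATG12-/- vesicles.

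Both C/D snoRNAs were also low in knockout vesicles. U73a had 18.5, 32.7 and 17.2 normalised reads in ATG7-/- vesicles, 35.8, 53.0 and 60.3 in ATG12-/- vesicles, and 286, 259 and 279 in wild type vesicles. U73a thus changed by -3.59 (SE 0.26) in ATG7-/- and by -2.47 (SE 0.26) in ATG12-/- vesicles. U94 had 25.1, 33.9 and 11.9 normalised reads in ATG7-/- vesicles, 34.5, 29.2 and 26.4 in ATG12-/- vesicles, and 191, 199 and 233 in wild type vesicles. The change of U94 was -3.19 (SE 0.30) in ATG7-/- and -2.75 (SE 0.30) in ATG12-/- vesicles. U94 is the one member whose knockout vesicle groups overlapped each other, and its ATG7-/- values rest on 9 to 29 reads.

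**Figure D1:**
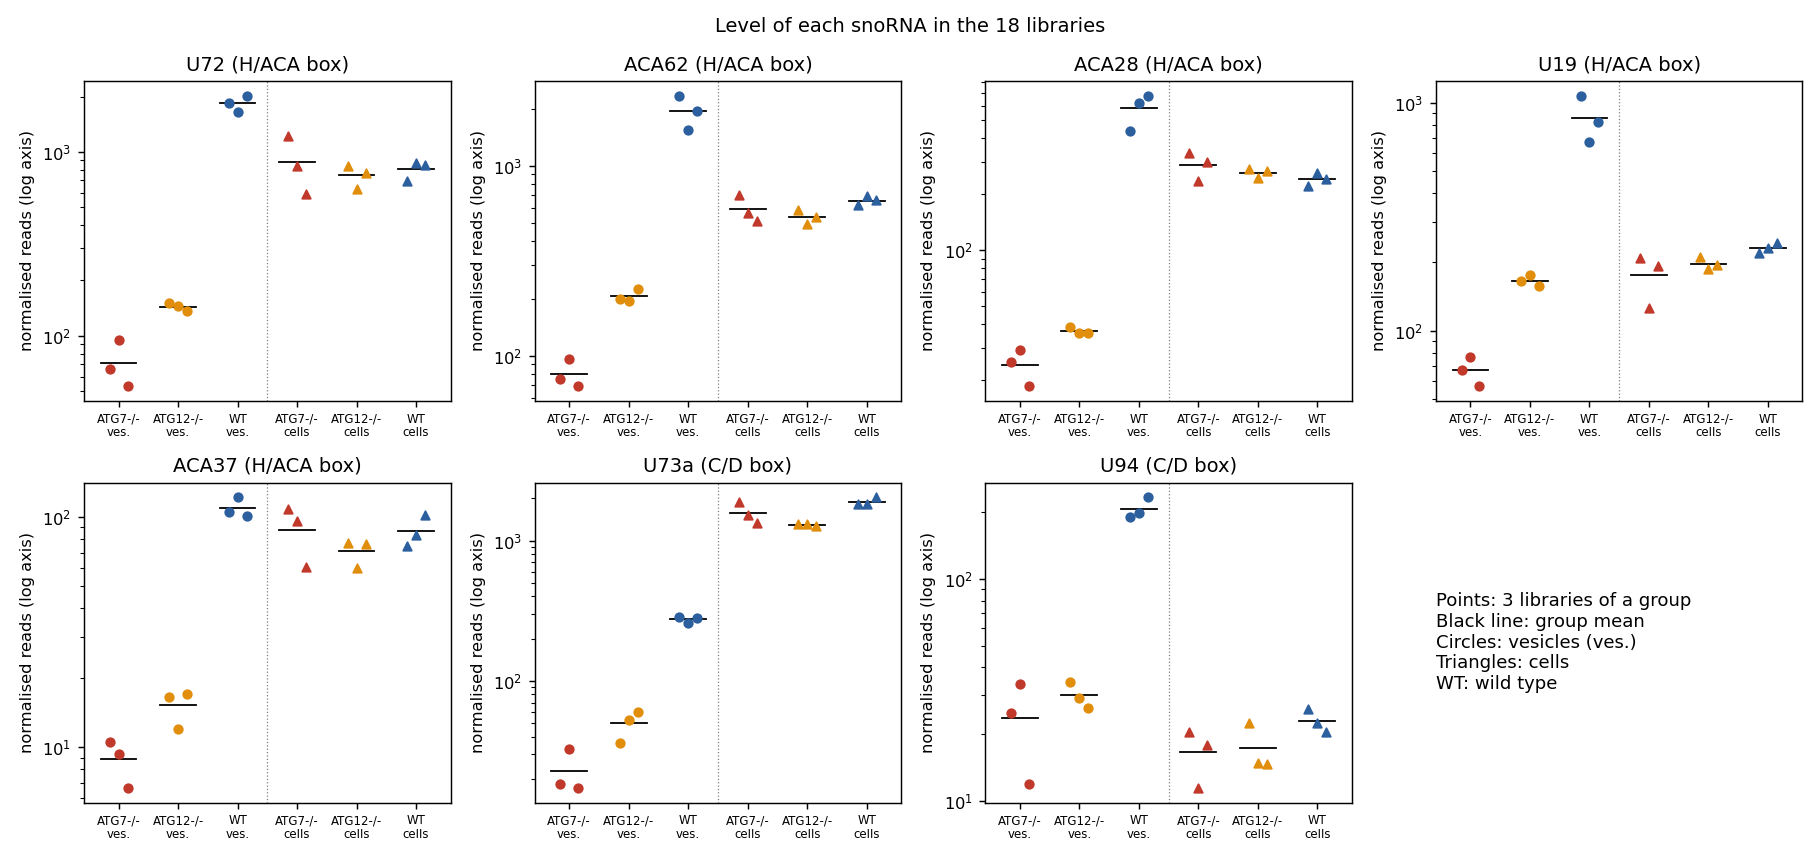
Normalised reads (log axis) of each of the 7 snoRNAs in the 18 libraries, with points for libraries, black lines for group means, circles for vesicles and triangles for cells. In every panel the 6 knockout vesicle libraries lie below the 3 wild type vesicle libraries. In cells the knockout means lie at 68.9% to 119.9% of the wild type mean.

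Over the 7, the knockout and wild type vesicle libraries did not overlap for any member in either knockout. Among all 850 features tested in vesicles, 30.9% were lower without overlap in ATG7-/- vesicles and 26% in ATG12-/- vesicles. Since the loss chose the members, their count is read against nothing. The members' median log2 change was -3.63 in ATG7-/- and -2.78 in ATG12-/- vesicles, beside 0.11 and 0.05 over all features. Scaling by library totals shifted the median of all features by -0.36 in ATG7-/- and -0.35 in ATG12-/- vesicles, and gave medians of -4.01 and -3.13 for the 7.

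All 7 were lower in ATG7-/- than in ATG12-/- vesicles by normalised reads. ATG12-/- minus ATG7-/- vesicles gave log2 differences of 0.44 (SE 0.30) for U94 to 1.36 (SE 0.18) for ACA62. Without replicate 3 of the ATG7-/- vesicles U94 differed by 0.033. Ranges of the libraries did not overlap for 6 of the 7, the exception being U94, where 29.2% of all features were higher without overlap. Other snoRNAs shared that difference, with a median of 1.14 over 87 other H/ACA and 0.95 over 138 other C/D snoRNAs. The 7 were also set against the snoRNA pool of the same vesicles. They together made up 0.0999% ± 0.00946 of snoRNA and scaRNA reads in ATG7-/- vesicles, 0.0759% ± 0.00687 in ATG12-/- vesicles and 0.801% ± 0.117 in wild type vesicles (SD, n = 3 each). The share was lower in ATG12-/- than in ATG7-/- vesicles for 7 of 7 members, which have that pool in common. The pool averaged 297530 normalised reads in ATG7-/- and 857530 in ATG12-/- vesicles, so any snoRNA that rose less than the pool lost share. How many other snoRNAs lost share was not counted, so the count is not read as particular to the 7. The pool is mostly 5 entries of the C/D snoRNA U3, at 83.5% in ATG7-/-, 86.02% in ATG12-/- and 79.7% in wild type vesicles, and the same reads may be counted in several of these near-equal entries. Without U3, a change chosen after seeing the data, the 7 made up 0.604% ± 0.0204 of the pool in ATG7-/- vesicles, 0.544% ± 0.0141 in ATG12-/- vesicles and 3.95% ± 0.414 in wild type vesicles (SD, n = 3 each). Then 5 of the 7 had the lower mean share in ATG12-/- vesicles, and ACA62 and U19 the higher. Among these 5 the libraries stood apart for U72, ACA28, ACA37 and U94 and overlapped for U73a. Other snoRNAs were not counted here either. In cells the 7 made up, of the pool with U3, 0.596% ± 0.0408 in ATG7-/-, 0.618% ± 0.0348 in ATG12-/- and 0.571% ± 0.0414 in wild type (SD, n = 3 each). All snoRNAs and scaRNAs took 7.85% ± 1.30 of reads in ATG7-/- vesicles, 23.0% ± 0.978 in ATG12-/- vesicles and 25.2% ± 3.17 in wild type vesicles (SD, n = 3 each).

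The cells were then asked whether the same RNAs were lower where the vesicles came from. In ATG7-/- cells 0 of the 7 were called against wild type cells by limma with Benjamini-Hochberg adjustment, where 16.8% of the 853 features tested were called. At an unadjusted p under 0.05 there was 1 by limma, U19, which was lower, and 1 by edgeR and by DESeq2, ACA28, which was higher, and both tools called 0 after adjustment. Their log2 changes ran between -0.48 (SE 0.27) for U94 and 0.25 (SE 0.15) for ACA28. In ATG12-/- cells 1 of the 7 was called, U73a, where 25.7% of features were called. U73a had 1321, 1315 and 1260.1 normalised reads in ATG12-/- cells and 1807, 1811 and 2033 in wild type cells. It fell by 0.53 (SE 0.15, adjusted p = 0.0202, limma), with 3 of 3 ATG12-/- libraries below all wild type ones.

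Leaving out any 1 of the 6 libraries compared ended that call for U73a (adjusted p = 0.0526 to 0.0713), and so did some of the scalings. With library totals it was -0.31 (adjusted p = 0.098), with TMM -0.39 (adjusted p = 0.0563) and with edgeR -0.39 (adjusted p = 0.0561). DESeq2 kept the call, and over 20 alternatives 10 did, with adjusted p from 0.00675 to 0.098. Of 148 other C/D snoRNAs 74 were called lower in ATG12-/- cells, beside 18.2% of all features, with a median of -0.50, close to the -0.53 of U73a. Between ATG12-/- and ATG7-/- cells 0 of the 7 were called by limma, edgeR or DESeq2, with 0 at an unadjusted p under 0.05 and 20% of features called.

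U72 showed how wide the cell replicates could be, with 1223, 844 and 593 normalised reads in ATG7-/- cells, 836, 631 and 773 in ATG12-/- cells, and 696, 868 and 845 in wild type cells. The 3 groups overlap, and U72 changed by 0.09 (SE 0.22, adjusted p = 0.810, limma) in ATG7-/- and by -0.11 (SE 0.22, adjusted p = 0.755) in ATG12-/- cells. The sign for ATG12-/- cells turned to 0.12 with library totals. ACA62 averaged 592 ± 98.0 in ATG7-/- cells and 537 ± 46.2 in ATG12-/- cells, against 656 ± 36.2 in wild type cells (SD, n = 3 each). Its ATG12-/- cell libraries all lay below its wild type ones, where 34.6% of all features did so. Its changes of -0.16 (SE 0.15, adjusted p = 0.466, limma) in ATG7-/- and -0.29 (SE 0.15, adjusted p = 0.165) in ATG12-/- cells were not called, and library totals gave -0.062 (adjusted p = 0.764) in ATG12-/- cells. ACA28 averaged 289 ± 49.1 in ATG7-/- cells and 262 ± 14.9 in ATG12-/- cells, against 241 ± 19.1 in wild type cells (SD, n = 3 each). Its changes, 0.25 (SE 0.15, adjusted p = 0.239, limma) in ATG7-/- and 0.12 (SE 0.15, adjusted p = 0.586) in ATG12-/- cells, were not called.

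U19 had 208, 126 and 192 normalised reads in ATG7-/- cells, 209.7, 187 and 194 in ATG12-/- cells, and 219.8, 230.2 and 243 in wild type cells. Both knockout groups lay below all wild type libraries, where 20.6% of all features did so in ATG7-/- and 34.6% in ATG12-/- cells, yet the changes of -0.43 (SE 0.17, adjusted p = 0.107, limma) in ATG7-/- and -0.23 (SE 0.17, adjusted p = 0.368) in ATG12-/- cells were not called. With library totals U19 was at -0.0016 in ATG12-/- cells (adjusted p = 0.994, limma). Without replicate 1 of the ATG7-/- cells U19 changed by -0.57 (adjusted p = 0.0386, limma), a call that no other of its 20 alternatives gave. ACA37 averaged 88.1 ± 24.5 in ATG7-/- cells and 71.2 ± 9.60 in ATG12-/- cells, against 86.6 ± 14.2 in wild type cells (SD, n = 3 each), with overlapping libraries. U94 was the scarcest in cells, at 20.6, 11.5 and 17.8 normalised reads in ATG7-/-, 22.5, 14.8 and 14.7 in ATG12-/- and 26.1, 22.4 and 20.4 in wild type cells. Its changes of -0.48 (SE 0.27, adjusted p = 0.224, limma) in ATG7-/- and -0.41 (SE 0.27, adjusted p = 0.291) in ATG12-/- cells rest on 14 to 41 reads per library. A p above the threshold does not show that these levels were equal.

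**Figure D2:**
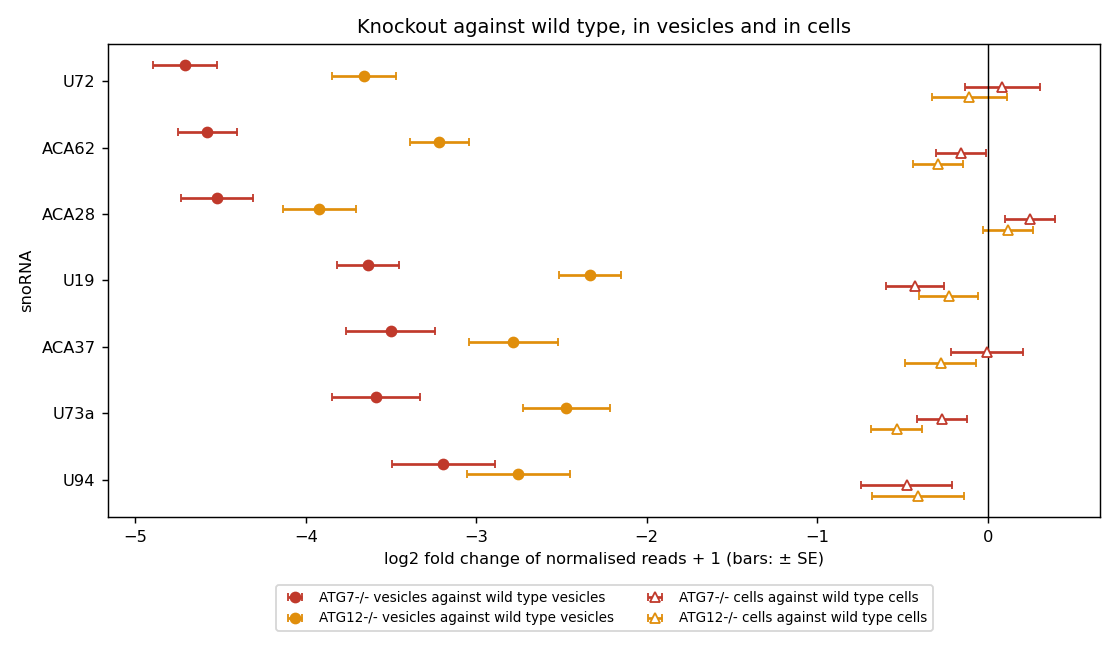
Log2 fold change of each snoRNA, with its SE, in ATG7-/- (red) and ATG12-/- (orange) against wild type, for vesicles (filled circles) and cells (open triangles). Vesicle changes run from -4.71 to -2.33 and cell changes from -0.53 to 0.25.

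The vesicle change minus the cell change of the same knockout had a median of -3.50 in ATG7-/- and -2.51 in ATG12-/- over the 7. ACA28 had the lowest value in ATG12-/-, -4.04 (SE 0.26), and U72 in ATG7-/-, -4.79 (SE 0.31). U94 in ATG7-/- (-2.72, SE 0.42) and U73a in ATG12-/- (-1.94, SE 0.29) were nearest to 0. Over all 905 features the medians were 0.08 and 0.10. Other snoRNAs shared part of this difference, with medians of -1.83 in ATG7-/- and -0.46 in ATG12-/- over 93 other H/ACA snoRNAs. Over 148 other C/D snoRNAs the medians were -1.28 in ATG7-/- and -0.0085 in ATG12-/-.

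**Figure D3:**
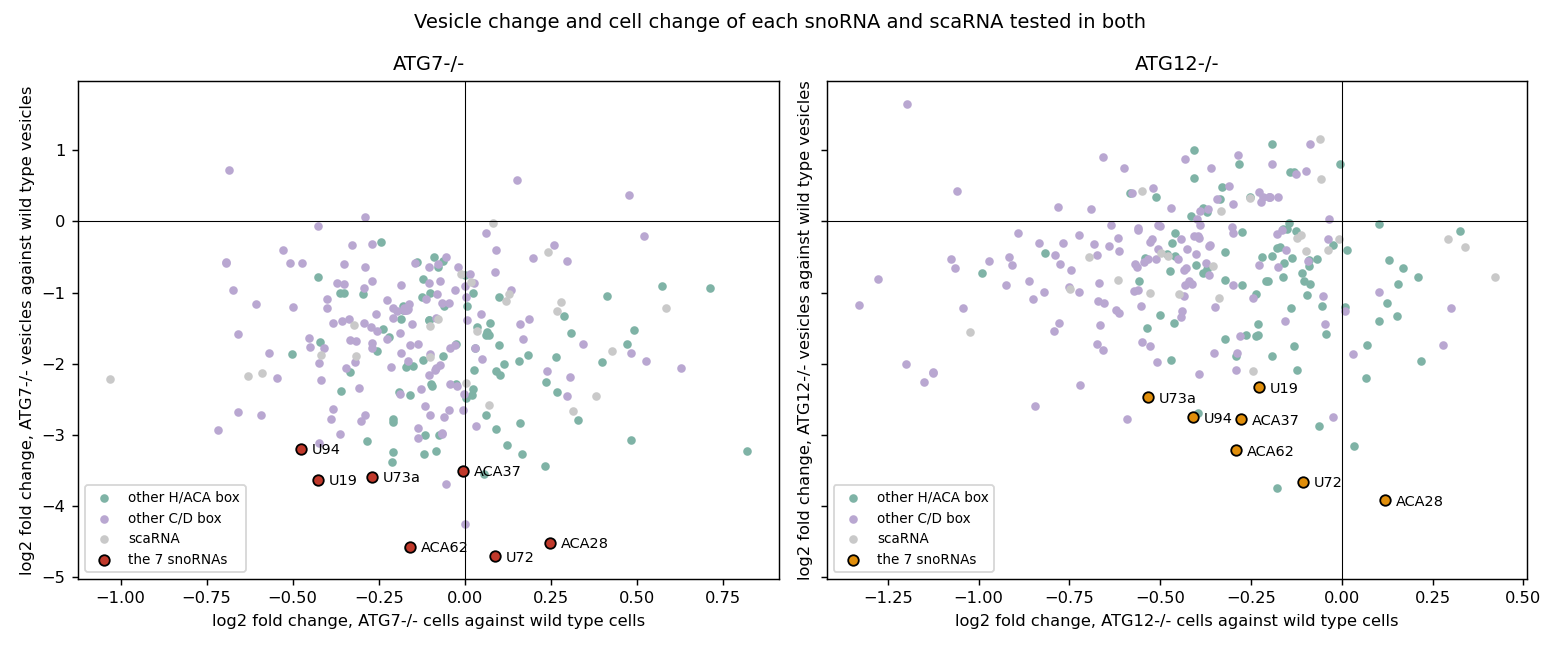
Log2 fold change in vesicles (vertical) against that in cells (horizontal) for each snoRNA and scaRNA tested in both, with ATG7-/- at left and ATG12-/- at right. The 7 snoRNAs (outlined) lie low in both panels, among other snoRNAs, at cell changes of -0.53 to 0.25.

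Vesicles were also set against the cells of the same genotype, and here the 7 differed among themselves. U94 averaged 208 ± 22.6 normalised reads (SD, n = 3) in wild type vesicles against 23.0 ± 2.88 in the cells of that genotype, a log2 difference of 3.12 (SE 0.30). Only 3 of the 150 C/D snoRNAs tested stood higher than U94 in wild type vesicles relative to cells. U73a, the other C/D member, averaged 274 ± 14.3 in wild type vesicles against 1883 ± 129 in those cells (SD, n = 3 each), at -2.77 (SE 0.20). By normalised reads it is the one member below its cell level in wild type vesicles. Library totals also put U72, ACA28 and ACA37 below theirs. For the other 148 C/D snoRNAs the median by normalised reads was -3.73, with 124 called lower and 13 higher, where 42.9% and 38.9% of all features were called.

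Among the H/ACA members U19 stood highest in wild type vesicles relative to cells, at 1.86 (SE 0.19), followed by ACA62 at 1.54 (SE 0.16), ACA28 at 1.24 (SE 0.18), U72 at 1.20 (SE 0.22) and ACA37 at 0.34 (SE 0.24). The median of 93 other H/ACA snoRNAs was -1.08. Of the 98 H/ACA snoRNAs tested 33 lay above 0, and from the highest the members ranked between 13 (U19) and 33 (ACA37). These signs depend on the scaling. Library totals shifted the median over all features by -1.44, and U72 turned to -0.32, ACA28 to -0.27 and ACA37 to -1.16. ACA62 moved to 0.028 and U19 to 0.34. As shares of all reads, U72 took 0.0635% ± 0.00902 in wild type vesicles against 0.0793% ± 0.00993 in wild type cells, and U94 took 0.00720% ± 0.00124 in vesicles and 0.00227% ± 0.000274 in cells (SD, n = 3 each).

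In the knockouts the same difference lay below that of wild type for each of the 7. U72 in vesicles against cells was at -3.60 (SE 0.22) in ATG7-/- and -2.36 (SE 0.22) in ATG12-/-. U73a was at -6.09 (SE 0.20) in ATG7-/- and -4.71 (SE 0.20) in ATG12-/-. U19 in ATG12-/- was at -0.25 (SE 0.19), with 166 ± 9.27 normalised reads in vesicles and 197 ± 11.6 in cells (SD, n = 3 each). U94 alone had a value above 0 in the knockouts, at 0.40 (SE 0.30) in ATG7-/- and 0.78 (SE 0.30) in ATG12-/-, which library totals turned to -1.47 and -1.23. In ATG7-/- its vesicle and cell libraries overlapped, and leaving out 1 library gave 0.096 to 0.81, the lowest without replicate 2 and the highest without replicate 3 of the vesicles.

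**Figure D4:**
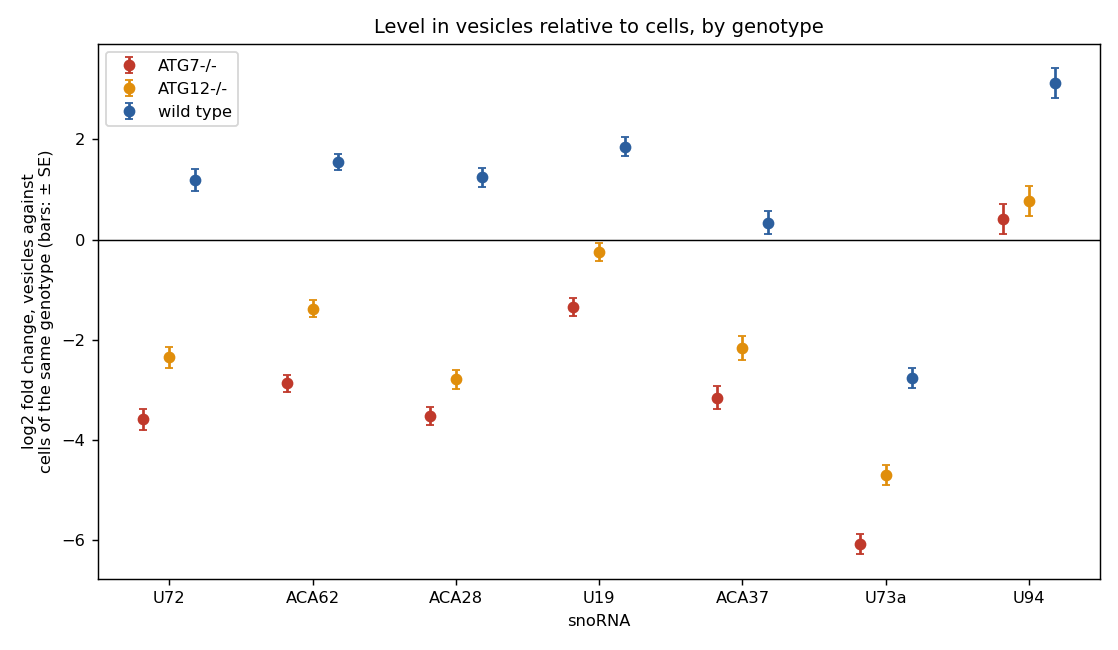
Log2 fold change of vesicles against cells of the same genotype, with its SE, for each snoRNA in ATG7-/- (red), ATG12-/- (orange) and wild type (blue). In wild type 6 of the 7 lie above 0 and U73a lies at -2.77, while for each member both knockouts lie below wild type.

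By level per 100 nt, the order of the 7 differed between vesicles and cells. Whether reads scale with RNA length in these libraries was not tested, so this level is not a count of molecules. ACA62 ranked first in ATG7-/- vesicles (60.1 normalised reads per 100 nt), in ATG12-/- vesicles (154.5) and in wild type vesicles (1460.4), with U72 next. The libraries of ACA62 and U72 overlapped on this scale in ATG7-/- and wild type vesicles and not in ATG12-/- vesicles. U73a ranked first in ATG7-/- cells (2424), ATG12-/- cells (1998) and wild type cells (2898), where ACA62 ranked behind U72. By normalised reads over the 6 groups, U72, ACA62, ACA28 and U19 were highest in wild type vesicles, with libraries apart from the next group. They were lowest in ATG7-/- vesicles. ACA37 in wild type vesicles overlapped ATG7-/- and wild type cells. U94 differed from these: its ATG7-/- vesicles overlapped its wild type cells. As mean shares of all reads, U72 took 0.0793% to 0.0913% in the cell groups, above its 0.0635% in wild type vesicles. ACA28 took 0.0238% to 0.0304% in the cell groups, above its 0.0202% in wild type vesicles. ACA62 and U19 kept their highest mean share in wild type vesicles. For ACA62 it was 0.0665% ± 0.0106, against 0.0647% ± 0.00434 for wild type cells (SD, n = 3 each).

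Other snoRNAs made from the same host genes or related in name did not all share these values. SNHG25 holds ACA62 and the C/D snoRNA U104. U104 had 173, 211 and 206 normalised reads in ATG7-/- vesicles, 345, 365 and 315 in ATG12-/- vesicles, and 389, 285 and 235 in wild type vesicles. Its change was -0.60 (SE 0.18, adjusted p = 0.0103, limma) in ATG7-/- and 0.20 (SE 0.18, adjusted p = 0.389) in ATG12-/- vesicles. In cells U104 averaged 12165 ± 1652 in ATG7-/-, 8966 ± 311 in ATG12-/- and 15426 ± 675 in wild type (SD, n = 3 each). ACA62 over U104 thus gave a ratio of 0.408 ± 0.0633 in ATG7-/- vesicles, 0.606 ± 0.0946 in ATG12-/- vesicles and 6.57 ± 1.53 in wild type vesicles (SD, n = 3 each). In cells that ratio was 0.0487 ± 0.00437 in ATG7-/-, 0.0599 ± 0.00516 in ATG12-/- and 0.0426 ± 0.00420 in wild type (SD, n = 3 each). A ratio within a library shows unequal change and not which of the pair moved.

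RPS3A holds U73a and U73b, whose sequences above align with 69.4% identical columns. U73b was listed at 0 in all 3 wild type vesicle libraries and had 0 to 2 reads in each knockout vesicle library. In cells it averaged 22.2 ± 7.46 normalised reads in ATG7-/-, 20.6 ± 3.16 in ATG12-/- and 22.9 ± 3.29 in wild type (SD, n = 3 each). A loss of U73b from vesicles was not detectable at this depth.

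U19-2 (SNORA74B) is 67% identical to U19 over the aligned columns and shares no stretch of 50 bases with it. It averaged 6.36 ± 1.41 normalised reads in ATG7-/- vesicles, 10.5 ± 1.96 in ATG12-/- vesicles and 12.3 ± 5.40 in wild type vesicles (SD, n = 3 each). Its vesicle changes of -0.79 (SE 0.40, adjusted p = 0.106, limma) in ATG7-/- and -0.14 (SE 0.40, adjusted p = 0.797) in ATG12-/- were not called, on 4 to 13 reads per library. U19 over U19-2 gave a ratio of 11.04 ± 3.36 in ATG7-/- vesicles, 16.2 ± 3.35 in ATG12-/- vesicles and 85.4 ± 57.2 in wild type vesicles (SD, n = 3 each). In cells the ratio was 9.83 ± 2.79 in ATG7-/-, 9.06 ± 2.64 in ATG12-/- and 9.43 ± 0.474 in wild type (SD, n = 3 each). ACA50 (SNORA50A), the relative of ACA62, averaged 2.98 ± 0.874 in ATG7-/- vesicles, 5.70 ± 2.66 in ATG12-/- vesicles and 45.8 ± 9.98 in wild type vesicles (SD, n = 3 each). ACA50 was at 127 ± 24.4 in ATG7-/- cells and 116 ± 15.2 in ATG12-/- cells, against 122 ± 14.8 in wild type cells (SD, n = 3 each).

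**Figure D5:**
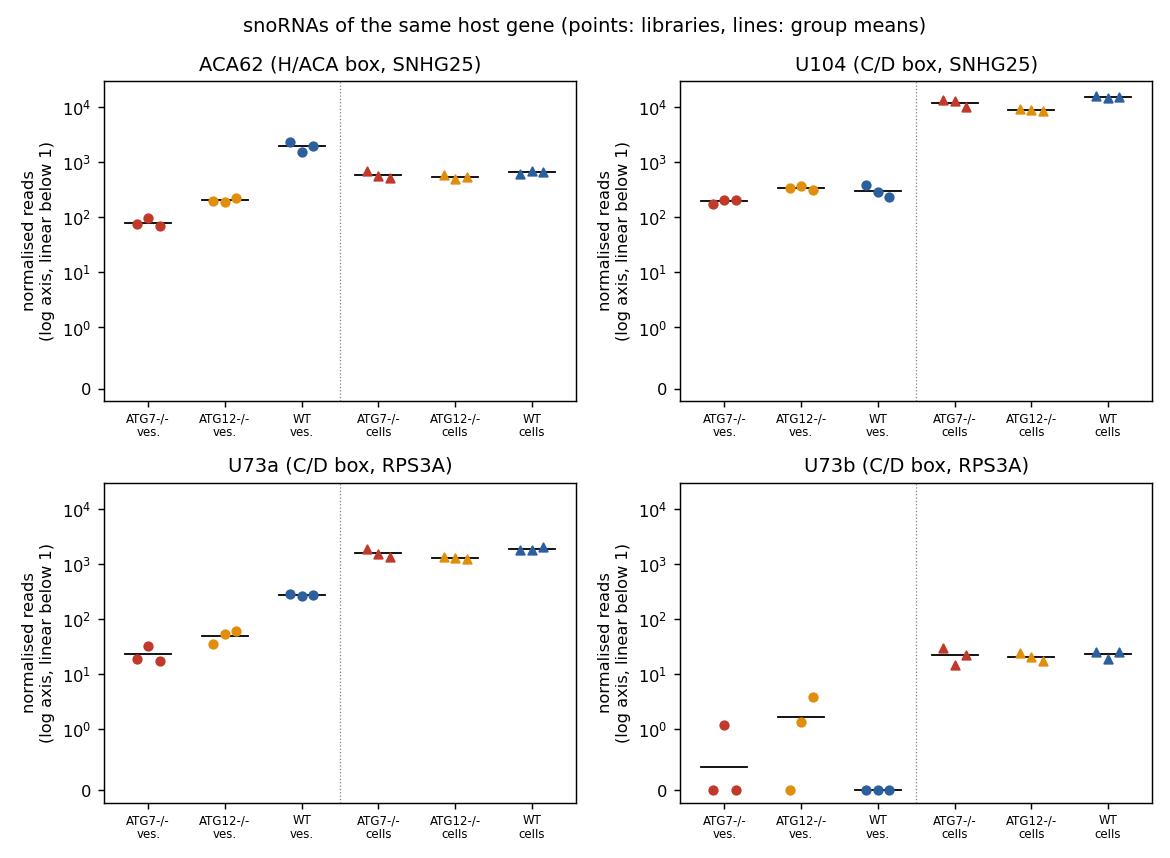
Normalised reads (log axis, linear below 1) of the snoRNAs of SNHG25 (top) and of RPS3A (bottom), with points for libraries and lines for group means. ACA62 averages 1942 in wild type vesicles and U104 averages 303 there, and U73b lies at 0 in all 3 wild type vesicle libraries.

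The U6 guides were taken as the nearest functional group of U94. Of 5 others in the table (SNORD7, SNORD8, SNORD9, SNORD10 and SNORD67), 4 were tested in vesicles. Called lower were 3 in ATG7-/- vesicles, where 28.9% of features were, and 1 in ATG12-/- vesicles, where 21.1% were, with median changes of -1.69 and -0.44. The U6 guide mgU6-77 (SNORD10) changed by -1.74 (SE 0.17, adjusted p = 1.81e-06, limma) in ATG7-/- and by -0.89 (SE 0.17, adjusted p = 0.00106) in ATG12-/- vesicles. In wild type vesicles against wild type cells HBII-166 (SNORD67) was higher by 2.19 (SE 0.20, adjusted p = 8.92e-10, limma) and 3 of the 5 were lower.

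Most other snoRNAs were lower in ATG7-/- vesicles too, and fewer in ATG12-/- vesicles. Of 87 other H/ACA snoRNAs tested, 83 were called lower in ATG7-/- vesicles and 0 higher, and in ATG12-/- vesicles 47 were lower and 7 higher. Of all features 33.5% were called higher in ATG7-/- and 22.6% in ATG12-/- vesicles. Their median changes were -1.90 and -0.66. Of 138 other C/D snoRNAs 115 were lower and 2 higher in ATG7-/- vesicles, and 64 lower and 9 higher in ATG12-/- vesicles, at medians of -1.44 and -0.56. The Cajal body relatives of snoRNAs, the scaRNAs, gave 19 of 24 lower in ATG7-/- and 5 of 24 lower and 1 higher in ATG12-/- vesicles.

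By the mean of both vesicle changes the 7 ranked 1, 2, 3, 8, 9, 10 and 11 among 256 snoRNAs and scaRNAs. U94, the last of them, had a mean change of -2.97, and ACA31, the next below it, -2.96. The 4 other snoRNAs ranked between these were ACA16 (-3.87), ACA5c (-3.59), the C/D snoRNA U38B (-3.43) and ACA50 (-3.22). ACA5c and ACA50 had group means of 2.54 to 5.70 normalised reads in knockout vesicles and 36.1 and 45.8 in wild type vesicles. Within a single knockout some members ranked lower in depth of loss. U94 ranked 18 in ATG7-/- vesicles, and U73a ranked 13 and U19 ranked 14 in ATG12-/- vesicles.

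Across the 18 libraries the mean standardised profile of the 7 was most like that of ACA16, with a Pearson r of 0.977 among 905 features, then ACA18 (0.960), U8 (0.943), U15A (0.934) and ACA36B (0.932). These libraries share the 6 groups that set the profile, so r is a description. U8, a C/D snoRNA needed for maturation of 28S and 5.8S ribosomal RNA, averaged 1238 normalised reads in ATG7-/- vesicles, 1288 in ATG12-/- vesicles and 8964 in wild type vesicles. In cells U8 averaged 6935 in ATG7-/-, 4502 in ATG12-/- and 6783 in wild type. Among the 7, r with that mean profile was 0.994 for ACA62, 0.987 for U72, 0.974 for ACA28, 0.949 for ACA37 and 0.898 for U19. It was 0.725 for U73a and 0.544 for U94, and between U73a and U94 the r was -0.17.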

How the data were processed

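Small RNA libraries were amplified over 12 cycles and read as single 50 bp reads, per the labels' protocols. Cutadapt 2.3, Bowtie2 2.3, bedtools and DESeq2 and the builds GRCh38 and hg38 are named, per the submitters' processing notes. The deposited values are a scaled signal: 100% of values in every library were whole multiples of 1 step, within 1e-06, so whole reads were recovered. How reads that match several places were counted is not given in the sources used here. The main test was limma 3.58.1 (R 4.3.3) with a trend on log2 (normalised reads + 1), for features that reached 10 normalised reads in at least 3 fitted libraries. Vesicle fits used the 9 vesicle libraries, cell fits the 9 cell libraries, and fits between vesicles and cells all 18. Adjusted p-values are Benjamini-Hochberg over all features tested, called under 0.05, and all tests are two-sided. edgeR 4.0.16 and DESeq2 1.42.0 ran on the recovered reads as alternatives. In ATG12-/- cells against wild type cells they called 182 and 205 features, and limma 219. Simulated reads of fixed spread were also run through the limma fit, and no result here rests on that run. PCR reads are not independent molecules.

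The members and lists were chosen with earlier results of these data known. Named beside the 7 are snoRNAs with as deep a mean vesicle loss, the 5 features of most similar profile, relatives by name or host gene, and U6 guides. The main fits did not pair libraries by replicate number, and whether same-numbered libraries share a culture was not established.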

Additional observations from a re-analysis of the deposited data

How the results depend on the processing

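Over 20 alternatives each, the vesicle changes of the 7 lay at -5.08 to -2.79 in ATG7-/- and -4.27 to -2.16 in ATG12-/- against wild type vesicles. The members were chosen for this loss, and several alternatives, such as other filters, leave a log2 change as it was. Their shared sign is therefore a description and no support. Library totals moved the members' median to -4.01 in ATG7-/- and -3.13 in ATG12-/- vesicles against wild type. They moved it to -4.98 in ATG7-/-, -4.17 in ATG12-/- and -0.27 in wild type vesicles against their cells, and to -3.002 for the ATG12-/- vesicle change minus cell change. Single values they reversed were U94 in vesicles against cells of ATG7-/- (-1.47) and ATG12-/- (-1.23), and U72 (-0.32), ACA28 (-0.27) and ACA37 (-1.16) in wild type. edgeR moved the medians against cells to -3.49 in ATG7-/- and -2.48 in ATG12-/-, and the vesicle minus cell changes to -3.88 in ATG7-/- and -2.88 in ATG12-/-. A pseudocount of 5 gave -2.81 against cells and -3.14 for the difference of changes in ATG7-/-. The causes were not tested.

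In cells U73a was the 1 member called, in ATG12-/- against wild type, and 0 were called with library totals, TMM, edgeR or a fit over all libraries. Leaving out 1 library gave 0 to 1 members called in ATG12-/- and 0 to 1 in ATG7-/- cells. It gave 74 to 158 features called in ATG7-/- cells (lowest without wild type replicate 2), 96 to 279 in ATG12-/- cells (lowest without wild type replicate 1) and 79 to 223 between the knockouts (lowest without ATG12-/- replicate 1), where the full fits called 143, 219 and 171. Cell changes that were not called also crossed 0. For ACA37 in ATG7-/- cells these were 0.084 with library totals, 0.046 with TMM, 0.056 with size factors within the compartment, 0.061 with edgeR and 0.10 with DESeq2. For U72 in ATG12-/- cells they were 0.12, 0.041, 0.011, 0.041 and 0.041 in the same order. Between ATG12-/- and ATG7-/- cells library totals gave 0.0067 for ACA62 and 0.0088 for ACA28. Leaving out 1 library gave -0.18 to 0.35 for U72 and -0.17 to 0.24 for ACA37 in ATG7-/- cells, and -0.21 to 0.0083 for U72 in ATG12-/- cells. Between the knockout cells it gave -0.45 to 0.068 for U72, -0.023 to 0.34 for U19 and -0.17 to 0.23 for U94.

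The share of calls that were higher was 53.7% in ATG7-/- and 51.8% in ATG12-/- vesicles and 50.3% in ATG7-/- and 29.2% in ATG12-/- cells, and with library totals 31.8%, 22.2%, 62.2% and 62.7%. TMM gave 52.2% in ATG12-/- cells. Deviations from the group means correlated by -0.31 to 0.25 between same-numbered libraries of different groups. Between differently numbered ones they correlated by -0.36 to 0.36. With 3 libraries per group these values cannot show whether same-numbered libraries share a culture, and the main fits did not pair them. A fit with the replicate number as a block called 123 features in ATG7-/- and 194 in ATG12-/- cells. In this balanced layout the block leaves log2 changes as they were, so the members' medians of -3.63 and -2.78 in vesicles could not move. Depth limits ACA37 and U94 most, at 5 to 29 reads per knockout vesicle library. ACA28, at 14 to 28 reads, and U73a, at 13 to 40, were close to them.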
